A study of Mus musculus with 14 samples.

Results

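Acid and base transport by the intercalated cells of the kidney was followed through 9 genes, chosen by name, in RNA sequencing of whole mouse kidneys. They were Slc4a1, Slc26a4, Slc4a9, Atp6v1b1, Atp6v1c2, Atp6v1g3, Atp6v0d2, Atp12a and Foxi1, which are 9 of the 24421 genes in the deposited table. All 9 were among the 14854 genes that passed the filter on low counts and were tested. The kidneys came from male C57BL/6J mice, and the 14 libraries form 5 groups. MnDps, given into a vein at 18 mg/kg, was studied at 24 h (2 libraries) and at 4 h (3 libraries). Dps, by the same route and dose, was studied at 24 h (3 libraries) and at 4 h (3 libraries). Vehicle controls made up the other 3 libraries, and the labels give them no time point. Per the series title the injected materials are protein cages of nanometre size aimed at the proximal tubule. The labels do not spell out Dps or MnDps and do not say how they differ. They also do not state whether each library came from a separate animal, so the p-values here speak only of how these libraries varied.

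Intercalated cells sit among the principal cells of the connecting tubule and collecting duct and adjust how much acid or base leaves in the urine. Type A cells secrete protons with a vacuolar-type proton pump (V-ATPase) in the membrane facing the urine and pass bicarbonate to the blood through the anion exchanger AE1, the product of Slc4a1. Type B cells secrete bicarbonate in exchange for chloride through pendrin, the product of Slc26a4, and carry AE4, the product of Slc4a9, on the side of the blood. The pump uses subunits found in most cells together with versions that are enriched in these cells, among them B1 (Atp6v1b1), C2 (Atp6v1c2), G3 (Atp6v1g3) and d2 (Atp6v0d2). Foxi1 is the forkhead transcription factor on which the identity of these cells depends, and Atp12a encodes the catalytic subunit of a proton-potassium pump.

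The promoter windows of 3 of the genes are shown here because Foxi1 is known to act on several intercalated cell promoters and these are the windows in which a forkhead-type core was found. Windows of 250 bases before to 50 bases after the start were available for 5 of the 9 genes, namely Slc26a4, Atp6v1b1, Atp6v1c2, Atp6v1g3 and Foxi1, from RefSeq on GRCm38.p6. Each is written 5′ to 3′ on the strand of the gene. Capitals mark a forkhead-type core, searched as TGTTTAC, as TGTTTA (which is part of TGTTTAC) and as TGTTTG on both strands. The Slc26a4 window is chr12:31559935-31560234 on the minus strand, that of Atp6v1b1 is chr6:83742767-83743066 on the plus strand, and that of Atp6v1g3 is chr1:138273488-138273787 on the plus strand.
Slc26a4: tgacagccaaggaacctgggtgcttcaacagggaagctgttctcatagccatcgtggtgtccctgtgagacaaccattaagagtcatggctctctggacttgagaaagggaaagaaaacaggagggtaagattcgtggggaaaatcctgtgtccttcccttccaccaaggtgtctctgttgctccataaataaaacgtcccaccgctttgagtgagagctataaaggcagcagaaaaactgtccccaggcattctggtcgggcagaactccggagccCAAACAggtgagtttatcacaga
Atp6v1b1: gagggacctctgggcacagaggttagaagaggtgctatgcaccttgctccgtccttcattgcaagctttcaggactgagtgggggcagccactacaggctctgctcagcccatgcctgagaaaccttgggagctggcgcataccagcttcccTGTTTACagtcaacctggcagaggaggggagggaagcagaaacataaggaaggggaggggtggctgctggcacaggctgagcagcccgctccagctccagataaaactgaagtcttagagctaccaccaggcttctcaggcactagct
Atp6v1g3: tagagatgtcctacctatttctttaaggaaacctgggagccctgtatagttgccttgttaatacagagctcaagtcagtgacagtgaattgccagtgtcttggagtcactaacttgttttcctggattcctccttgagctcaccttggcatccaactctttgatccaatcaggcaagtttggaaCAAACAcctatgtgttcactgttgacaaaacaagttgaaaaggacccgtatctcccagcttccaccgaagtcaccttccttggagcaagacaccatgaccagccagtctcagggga
Of the 5 windows, 1 held TGTTTAC, in Atp6v1b1 at 98 bases before the start, and 3.65% of all 32851 promoter windows in the table held it. TGTTTG was found in 2 of the 5 windows, on the reverse strand at 66 bases before the start of Atp6v1g3 and at base 27 after the start of Slc26a4, against 18.2% of all windows. TGTTTA was in 1 of the 5, against 13.4%. The windows of Atp6v1c2 and Foxi1 held none of these letters and are not shown. These matches describe the letters of the windows only, and binding at them was not tested.

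The depth of the libraries ran from 15097093 to 42074942 counts. Markers of proximal tubule (8 genes), thick ascending limb (6 genes), distal convoluted tubule (6 genes) and principal cells (12 genes) were all present, with none at 0 in any group. The relation of counts to transcript length differed between groups. The Spearman correlation, across genes, of transcript length with a library's departure from the mean level lay between -0.508 and -0.287 in MnDps at 4 h, between -0.343 and -0.178 in Dps at 24 h, at -0.121 and -0.0359 in MnDps at 24 h, between 0.398 and 0.430 in Dps at 4 h and between 0.146 and 0.463 in controls. A fit in which each library's trend on length and GC content entered as an offset was therefore also made. For the genes named at the outset, it is given where it changed a call or moved a called value by more than 1.5 times. For single genes outside that list, and for the counts called in the other lists, values with the offset were not examined. Calls for those genes and lists come from the fit without it. Levels are CPM, counts relative to the scaled size of the library, given as mean ± SD, with n = 2 for MnDps at 24 h and n = 3 for every other group. A gene is said to rise or fall where edgeR's quasi-likelihood test gave a Benjamini-Hochberg adjusted p under 0.05 over the 14854 genes.

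Per kilobase of exon, the levels over the 14 libraries were similar for Slc26a4 (32.1 CPM per kb), Atp6v1b1 (31.3) and Atp6v1g3 (30.7). Atp6v1c2 (19.1), Slc4a9 (18.8), Atp6v0d2 (15.3) and Foxi1 (15.03) came next. Slc4a1 followed at 8.001 CPM per kb, and Atp12a was near the floor at 0.396. These values depended on the transcript model, most of all for Atp6v1b1, which was at 68.6 CPM per kb of its longest transcript. On that measure Slc4a9 was at 26.6 and Atp6v1c2 at 26.5 CPM per kb. The spread within groups also differed between genes. The coefficient of variation within groups was 3.27% for Atp6v1b1, 5.29% for Slc4a9, 5.55% for Atp6v1c2 and 5.81% for Slc26a4. It was 9.75% for Atp6v1g3, 10.4% for Atp6v0d2, 12.8% for Foxi1, 24.2% for Slc4a1 and 38.5% for Atp12a.

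**Figure D1:**
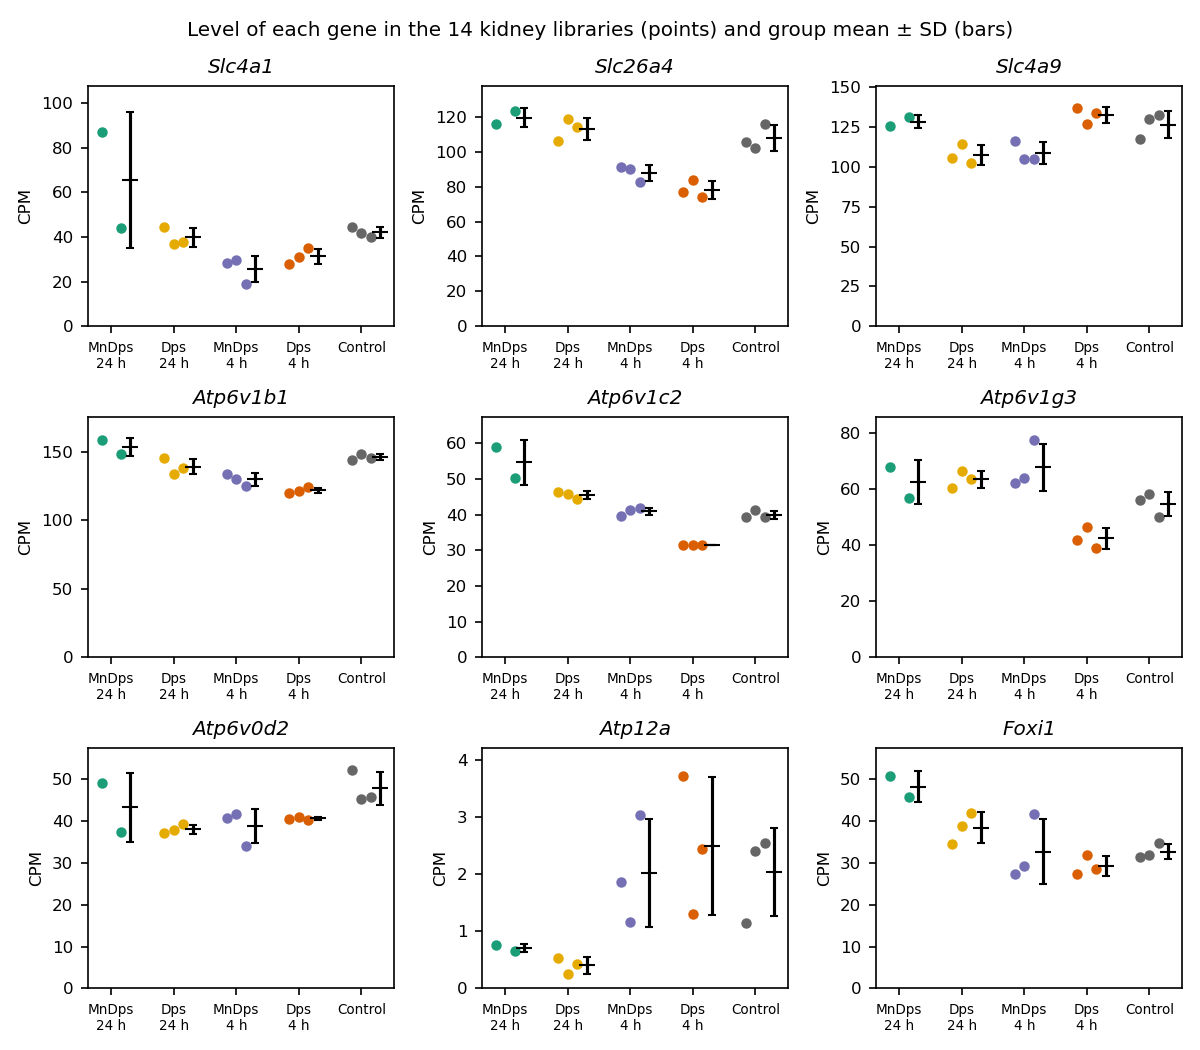
Level of each of the 9 genes in CPM (vertical axis, from 0) in every library (points) by group (horizontal axis), with the group mean and SD as bars beside the points. Slc26a4 lies lower in both 4 h groups than in controls, Atp12a lies lower in both 24 h groups, and 1 library of MnDps at 24 h stands high for Slc4a1 at 86.9 CPM.

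Pendrin fell in both 4 h groups and did not pass the test in either 24 h group. Slc26a4 (chr12:31519827-31559969 on GRCm38, minus strand) was read at 116 and 123 CPM in MnDps at 24 h and at 106, 119 and 114 CPM in Dps at 24 h. It was read at 91.0, 90.3 and 82.7 CPM in MnDps at 4 h and at 76.8, 83.6 and 73.9 CPM in Dps at 4 h, against 105, 102 and 116 CPM in controls. Every 4 h library was below every control library, and each 24 h group overlapped the controls. The log2 fold change was -0.46 ± 0.08 (SE; adjusted p = 0.00054, edgeR) for Dps at 4 h and -0.29 ± 0.08 (adjusted p = 0.00619) for MnDps at 4 h. In whole kidney, fewer cells of a type and less RNA per cell cannot be told apart. Against 4 h, Slc26a4 was higher at 24 h by 0.44 ± 0.09 (adjusted p = 0.00197) with MnDps and by 0.53 ± 0.08 (adjusted p = 7.58e-05) with Dps. All 4 of these calls were kept under every alternative run, including the leaving out of each library and the length and GC offset. Against control, the 24 h values were 0.15 ± 0.09 with MnDps (adjusted p = 0.264) and 0.07 ± 0.08 with Dps (adjusted p = 0.569).

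AE4 fell with Dps at 24 h and with MnDps at 4 h. Slc4a9 (chr18:36528147-36556273, plus strand) was read at 126 and 132 CPM in MnDps at 24 h, at 105, 114 and 102 CPM in Dps at 24 h, at 117, 105 and 105 CPM in MnDps at 4 h and at 137, 127 and 134 CPM in Dps at 4 h. The controls were at 117, 130.4 and 133 CPM. MnDps at 4 h and Dps at 24 h lay below the controls with no overlap, and the other 2 groups overlapped them. The log2 fold change against control was -0.24 ± 0.08 for Dps at 24 h (adjusted p = 0.0344) and -0.22 ± 0.07 for MnDps at 4 h (adjusted p = 0.025). It was 0.02 ± 0.08 for MnDps at 24 h (adjusted p = 0.898) and 0.07 ± 0.07 for Dps at 4 h (adjusted p = 0.605). With Dps the gene was lower at 24 h than at 4 h, with a log2 difference of -0.31 ± 0.07 (adjusted p = 0.00372), while with MnDps the difference was 0.24 ± 0.08 (adjusted p = 0.0503). That MnDps difference was called without MnDps at 4 h replicate 1 (0.29), with size factors by the median of ratios (0.24), with a filter of at least 1 CPM in at least 3 libraries (0.24), under DESeq2 (0.24) and under limma voom (0.23), and was 0.11 and not called with the length and GC offset. Both calls against control were lost with the length and GC offset, at -0.19 for Dps at 24 h and -0.13 for MnDps at 4 h, and with a term for deep libraries, at -0.23 and -0.21. For Dps at 24 h the call was lost without replicate 1 (-0.24) or 3 (-0.22) of that group or control replicate 2 (-0.23) or 3 (-0.21). For MnDps at 4 h it was lost without replicate 2 (-0.21) or 3 (-0.20), without control replicate 3 (-0.19) and in a fit of only the groups compared (-0.22).

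AE1 fell in MnDps at 4 h, and 1 library of MnDps at 24 h stood far above the rest. Slc4a1 (chr11:102348824-102366203, minus strand) was read at 86.9 and 43.9 CPM in MnDps at 24 h, at 44.6, 37.0 and 37.8 CPM in Dps at 24 h, at 28.3, 29.9 and 19.1 CPM in MnDps at 4 h and at 28.1, 31.0 and 34.9 CPM in Dps at 4 h. The controls were at 44.6, 41.9 and 39.9 CPM. Both 4 h groups lay below the controls without overlap, and both 24 h groups overlapped them. In log2 terms the fold change was -0.70 ± 0.22 for MnDps at 4 h (adjusted p = 0.0202) and -0.43 ± 0.22 for Dps at 4 h (adjusted p = 0.205), the second of which was called in a fit of only the groups compared (-0.42). The MnDps call was lost without its replicate 3 (-0.54) and with the length and GC offset (-0.61). At 24 h the values were 0.63 ± 0.24 for MnDps (adjusted p = 0.0995) and -0.08 ± 0.22 for Dps (adjusted p = 0.826). The MnDps value rests on the library at 86.9 CPM, replicate 1, being 0.06 without it and 1.05 and called without replicate 2, and it was also called under DESeq2 (0.64). With MnDps the gene was higher at 24 h than at 4 h by 1.33 ± 0.24 (adjusted p = 0.0022), a value that was 0.75 without MnDps at 24 h replicate 1 and still called.

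The library that stood high for Slc4a1 was also high for Alas2, while the other 3 tested erythroid markers were lower in it than in the other library of MnDps at 24 h. Red cell precursors carry the same exchanger as band 3. Alas2, the erythroid enzyme that begins haem synthesis, was read at 23.6 CPM in that library and 9.87 CPM in the other library of MnDps at 24 h, against 4.39, 6.25 and 8.56 CPM in controls. Klf1 was at 4.16 CPM in that library and 4.996 CPM in the other, Sptb at 4.67 and 5.82 CPM, and Tspan33 at 50.9 and 56.7 CPM. The 13 erythroid markers in the table summed to 83.9 and 77.6 CPM in MnDps at 24 h, between 77.2 and 83.7 CPM in Dps at 24 h, between 81.4 and 93.1 CPM in MnDps at 4 h and between 65.8 and 75.1 CPM in Dps at 4 h, against 66.9 to 81.3 CPM in controls. The globin genes Hbb-bs, Hbb-bt, Hba-a1 and Hba-a2 are listed at 0 in every library. Aqp6, a water channel of type A cells, was at 129.9 CPM in the library that was high for Slc4a1 and 57.5 CPM in the other. The part of red cell RNA in the Slc4a1 values was not tested.

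Among the pump subunits, B1 fell at 4 h by a small amount with both materials. Atp6v1b1 (chr6:83742990-83758855, plus strand) was read at 158 and 149 CPM in MnDps at 24 h and at 145, 134 and 138 CPM in Dps at 24 h. It was read at 134, 130.1 and 125 CPM in MnDps at 4 h and at 120.3, 122 and 124 CPM in Dps at 4 h, against 144, 149 and 145 CPM in controls. Every 4 h library was below every control library. Against control the log2 fold change was -0.17 ± 0.06 for MnDps at 4 h (adjusted p = 0.0391) and -0.26 ± 0.06 for Dps at 4 h (adjusted p = 0.0113). With the length and GC offset the MnDps value was -0.42 and that of Dps stayed at -0.26. The Dps call was lost without Dps at 4 h replicate 1 (-0.23) or 2 (-0.25). The MnDps call was lost without replicate 2 (-0.19) or 3 (-0.15) of that group or control replicate 2 (-0.18) or 3 (-0.17), with no count filter (-0.17), with a term for deep libraries (-0.18) and in a fit of only the groups compared (-0.17). At 24 h the values against control were 0.07 ± 0.07 for MnDps (adjusted p = 0.526) and -0.07 ± 0.06 for Dps (adjusted p = 0.458), and with the offset the Dps value was -0.25 and called.

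C2 fell in Dps at 4 h and rose in MnDps at 24 h. Atp6v1c2 (chr12:17284721-17329359, minus strand) was read at 59.0 and 50.1 CPM in MnDps at 24 h, at 46.4, 45.8 and 44.3 CPM in Dps at 24 h, at 39.6, 41.2 and 41.7 CPM in MnDps at 4 h and at 31.4, 31.5 and 31.6 CPM in Dps at 4 h. The controls were at 39.2, 41.2 and 39.2 CPM. The order of the groups had no overlap between neighbours except between MnDps at 4 h and control. For C2 the log2 fold change was 0.45 ± 0.08 for MnDps at 24 h (adjusted p = 0.00324) and -0.34 ± 0.07 for Dps at 4 h (adjusted p = 0.00465), and the Dps call was kept under every alternative run. The MnDps call was lost without MnDps at 24 h replicate 1 (0.33) and was kept at 0.28 with the length and GC offset. For MnDps at 4 h the value was 0.04 ± 0.07 (adjusted p = 0.714), but with the offset it was -0.29 and called, so the direction of C2 in that group turned with the correction. For Dps at 24 h it was 0.19 ± 0.07 (adjusted p = 0.0729), 0.20 and called under limma voom, and -0.03 with the offset. The exons of Atp6v1c2 share 50 bases, 2.3% of their length, with Pdia6 on the opposite strand, and the strand setting of the counting is not given in the sources used here. Pdia6 had a log2 fold change of 0.16 ± 0.11 in MnDps at 24 h (adjusted p = 0.334) and -0.15 ± 0.10 in Dps at 4 h (adjusted p = 0.336).

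G3 moved in opposite directions with the 2 materials at 4 h. Atp6v1g3 (chr1:138273738-138289462, plus strand) was read at 68.0 and 57.0 CPM in MnDps at 24 h, at 60.5, 66.5 and 63.7 CPM in Dps at 24 h, at 62.1, 63.9 and 77.4 CPM in MnDps at 4 h and at 41.8, 46.6 and 39.0 CPM in Dps at 4 h. The controls were at 56.0, 58.1 and 49.9 CPM. MnDps at 4 h lay above the controls and Dps at 4 h lay below them, both without overlap. Their log2 fold changes were 0.31 ± 0.10 for MnDps at 4 h (adjusted p = 0.019) and -0.36 ± 0.10 for Dps at 4 h (adjusted p = 0.0242). The MnDps call was lost without its replicate 3 (0.20), without control replicate 3 (0.25) and in a fit of only the groups compared (0.31). The Dps call was lost without replicate 1 (-0.33) or 3 (-0.29) of that group, without control replicate 1 (-0.35) or 2 (-0.33) and with a term for deep libraries (-0.36). At 24 h the values were 0.19 ± 0.11 for MnDps (adjusted p = 0.266) and 0.22 ± 0.10 for Dps (adjusted p = 0.133). With the offset the MnDps value at 24 h was 0.35 and called, and under limma voom the Dps value was 0.26 and called.

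The membrane-domain subunit d2 fell in Dps at 24 h and in MnDps at 4 h. Atp6v0d2 (chr4:19876841-19922605, minus strand) was read at 49.0 and 37.5 CPM in MnDps at 24 h, at 37.1, 37.8 and 39.3 CPM in Dps at 24 h, at 40.9, 41.6 and 34.1 CPM in MnDps at 4 h and at 40.6, 41.1 and 40.3 CPM in Dps at 4 h. The controls were at 52.3, 45.4 and 45.7 CPM. MnDps at 24 h overlapped the controls and the other groups did not. The log2 fold change was -0.33 ± 0.10 for Dps at 24 h (adjusted p = 0.0324), -0.30 ± 0.10 for MnDps at 4 h (adjusted p = 0.0242), -0.15 ± 0.11 for MnDps at 24 h (adjusted p = 0.403) and -0.23 ± 0.10 for Dps at 4 h (adjusted p = 0.13). The Dps call at 24 h was lost without its replicate 1 (-0.32) or 2 (-0.33), without control replicate 1 (-0.27) or 3 (-0.36) and with a term for deep libraries (-0.34). The MnDps call at 4 h was lost without its replicate 3 (-0.22), without control replicate 1 (-0.24), under limma voom (-0.22) and in a fit of only the groups compared (-0.30). Macrophages can also use d2. The 11 macrophage markers, none of them at 0, summed to 240.0 and 245.5 CPM in MnDps at 24 h, 235 to 269 CPM in Dps at 24 h, 138 to 158 CPM in MnDps at 4 h and 139 to 156 CPM in Dps at 4 h, against 147 to 199 CPM in controls. Their part in the Atp6v0d2 values was not tested.

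Each enriched version was also set beside the widely used version of the same subunit, as a ratio of CPM per kb of exon in each library. The ratios were not corrected for each library's trend on length and GC content, which division by length does not remove. The longest transcript was 1569 bases for Atp6v1c2 and 4927 bases for Atp6v1c1. Ratios also rest on the transcript model, with Atp6v1b2 at 87.1 CPM per kb of exon and 163.6 per kb of its longest transcript. The ratio of Atp6v1b1 to Atp6v1b2 stayed within a narrow range of means, at 0.398 ± 0.0149 in MnDps at 24 h, 0.368 ± 0.0283 in Dps at 24 h, 0.343 ± 0.00212 in MnDps at 4 h, 0.335 ± 0.0246 in Dps at 4 h and 0.366 ± 0.0108 in controls. The ratio of Atp6v1c2 to Atp6v1c1 was 1.32 ± 0.132 in MnDps at 24 h, 1.01 ± 0.0515 in Dps at 24 h, 0.907 ± 0.0314 in MnDps at 4 h, 0.797 ± 0.00738 in Dps at 4 h and 0.890 ± 0.0298 in controls. Without the scaling by length Atp6v1c2 was the lower of the pair, at 54.6 CPM against 106.1 CPM in MnDps at 24 h. The ratio of Atp6v1g3 to Atp6v1g1 was 0.320 ± 0.0328 in MnDps at 24 h, 0.248 ± 0.00608 in Dps at 24 h, 0.269 ± 0.0169 in MnDps at 4 h, 0.210 ± 0.0188 in Dps at 4 h and 0.234 ± 0.0102 in controls. All 3 of these ratios were above every control library in each library of MnDps at 24 h. In that group Atp6v1g1 was at 117 ± 2.66 CPM, against 140.5 ± 11.1 CPM in controls. Its log2 fold change was -0.26 ± 0.09 (adjusted p = 0.056, edgeR), and that of Atp6v1g3 was 0.19 ± 0.11 (adjusted p = 0.266). For the other pair, Atp6v1c1 had -0.12 ± 0.07 (adjusted p = 0.253) and Atp6v1c2 had 0.45 ± 0.08 (adjusted p = 0.00324). The ratio of Atp6v0d2 to Atp6v0d1 was 0.217 ± 0.0413 in MnDps at 24 h, 0.165 ± 0.0109 in Dps at 24 h, 0.173 ± 0.0259 in MnDps at 4 h, 0.227 ± 0.00695 in Dps at 4 h and 0.246 ± 0.0384 in controls. Atp6v0d1 itself rose in Dps at 24 h (log2 fold change 0.24 ± 0.08, adjusted p = 0.0365) and in MnDps at 4 h (0.20 ± 0.08, adjusted p = 0.0402). Atp6v1b2, the partner of B1, passed the test in none of the 9 comparisons, and its means ran from 443 CPM in Dps at 4 h to 484 CPM in controls.

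The proton-potassium pump gene fell in Dps at 24 h, at levels that rest on few reads. Atp12a (chr14:56365068-56388550, plus strand) had 12 and 16 counts in MnDps at 24 h, 10, 5 and 9 in Dps at 24 h, 43, 30 and 63 in MnDps at 4 h and 158, 54 and 45 in Dps at 4 h, against 21, 42 and 95 in controls. In CPM these were 0.757 and 0.655 in MnDps at 24 h, 0.534, 0.245 and 0.430 in Dps at 24 h, 1.87, 1.17 and 3.04 in MnDps at 4 h and 3.73, 1.30 and 2.44 in Dps at 4 h, against 1.15, 2.41 and 2.56 in controls. Both 24 h groups were below every control and every 4 h library. For Dps at 24 h the log2 fold change was -2.36 ± 0.52 against control (adjusted p = 0.00766) and -2.63 ± 0.50 against Dps at 4 h (adjusted p = 0.000744), and both calls were kept under every alternative run. For MnDps at 24 h it was -1.57 ± 0.55 against control (adjusted p = 0.0686) and -1.51 ± 0.55 against MnDps at 4 h (adjusted p = 0.0609). The value against control was called without control replicate 1 (-1.84), under DESeq2 (-1.55) and in a fit of only the groups compared (-1.57). The value against 4 h was called without MnDps at 4 h replicate 2 (-1.79) and under DESeq2 (-1.52). The exons share 557 bases, 13.9% of their length, with Gm10873 on the opposite strand, a gene that is not in the table.

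Foxi1 rose in MnDps at 24 h. The gene (chr11:34204338-34208089, minus strand) was read at 50.8 and 45.7 CPM in MnDps at 24 h, at 34.6, 38.7 and 41.96 CPM in Dps at 24 h, at 27.3, 29.2 and 41.7 CPM in MnDps at 4 h and at 27.4, 32.0 and 28.5 CPM in Dps at 4 h. The controls were at 31.4, 31.9 and 34.8 CPM, so that MnDps at 24 h alone lay clear of them. The log2 fold change was 0.56 ± 0.14 for MnDps at 24 h (adjusted p = 0.021), 0.23 ± 0.13 for Dps at 24 h (adjusted p = 0.222), -0.01 ± 0.13 for MnDps at 4 h (adjusted p = 0.98) and -0.16 ± 0.13 for Dps at 4 h (adjusted p = 0.441). The MnDps call at 24 h was lost without either of its libraries (0.47 without replicate 1, 0.63 without replicate 2), without control replicate 1 (0.52) and with the length and GC offset (0.42).

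In the comparisons with control, 2 to 6 of the 9 genes were called. The shares of all tested genes are set beside them as a description, since the list was chosen with earlier results of these data known. No excess over those shares was tested. For MnDps at 24 h, 2 of the 9 genes were called, both higher, where 13.3% of all tested genes were called and 4.93% as higher. For Dps at 24 h, 3 were called, all lower, where 20.1% of all tested genes were called, 9.64% as higher and 10.4% as lower. For MnDps at 4 h, 6 were called, 5 of them lower and 1 higher, where 45.6% of all tested genes were called, 22.7% as lower and 22.9% as higher. For Dps at 4 h, 4 were called, all lower, where 14.6% of all tested genes were called, 6.27% as lower and 8.33% as higher. The median log2 fold change of the 9 genes was 0.15 for MnDps at 24 h, -0.07 for Dps at 24 h, -0.17 for MnDps at 4 h and -0.26 for Dps at 4 h, and that of all tested genes lay between -0.02 and 0.02 in these comparisons. Groups did not overlap controls for 3 of the 9 genes with MnDps at 24 h (45.2% of all genes), for 5 with Dps at 24 h (38.2%), for 6 with MnDps at 4 h (51.9%) and for 6 with Dps at 4 h (34.7%). The 4 comparisons share the same 3 controls. The number called for MnDps at 24 h was 0 without its replicate 1. For Dps at 24 h it was 1 without its replicate 1 or without control replicate 3. For MnDps at 4 h it was 1 without its replicate 3, 3 without control replicate 3 and 2 in a fit of only the groups compared, and for Dps at 4 h it was 2 without its replicate 1. Added together, the 9 genes reached 638 to 714 CPM in MnDps at 24 h, 580.5 to 593 CPM in Dps at 24 h, 530.4 to 542 CPM in MnDps at 4 h and 507 to 516 CPM in Dps at 4 h, against 592 to 606 CPM in controls. The sum of 714 CPM was that of MnDps at 24 h replicate 1, where Slc4a1 was at 86.9 CPM, against 43.9 CPM in replicate 2. These sums were made without the length and GC offset.

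**Figure D2:**
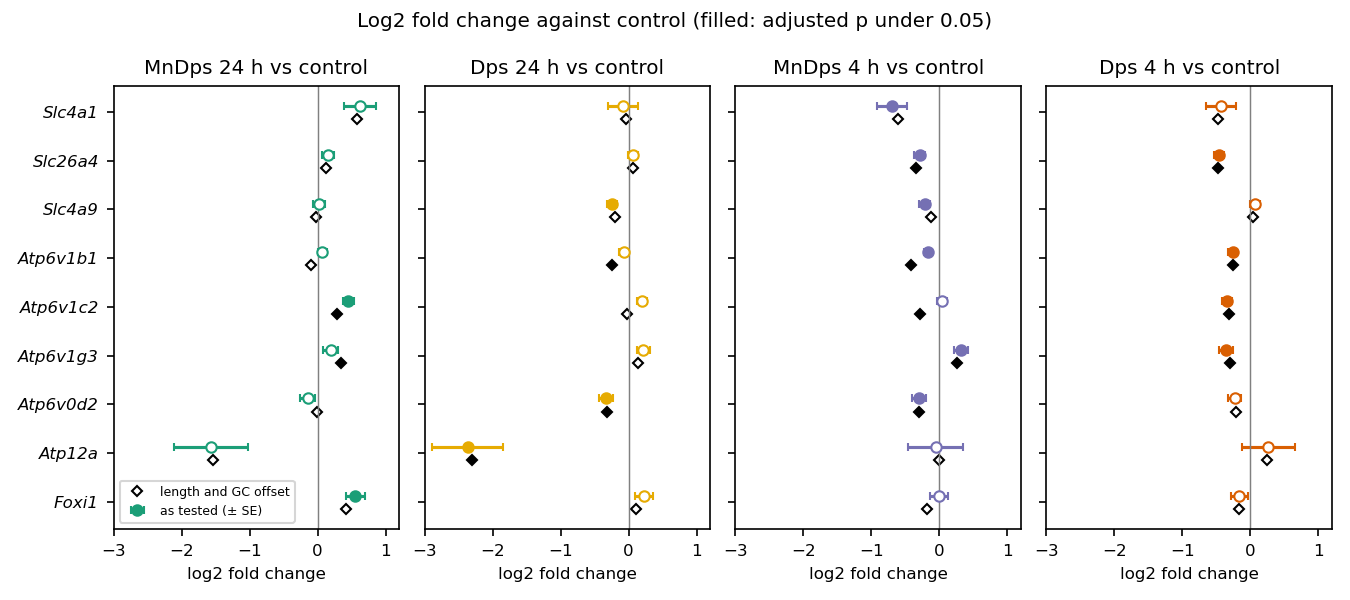
Log2 fold change against control (horizontal axis) of each gene (vertical axis) in the 4 treated groups, with its SE as a bar; filled circles have an adjusted p under 0.05, and diamonds give the value with the length and GC offset, filled on the same rule. Slc26a4 lies left of 0 in both 4 h panels by either fit, and Atp6v1c2 in MnDps at 4 h lies at 0.04 without the offset and at -0.29 with it.

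Between the 2 times, 5 of the 9 genes were higher at 24 h with each material. With MnDps, 5 were called, all of them higher at 24 h than at 4 h, where 21.8% of all tested genes were called and 10.1% as higher. With Dps, 7 were called, 5 higher and 2 lower, where 44.6% of all tested genes were called, 22.0% as higher and 22.6% as lower. The libraries of the 2 times did not overlap for 7 of the 9 genes with MnDps (50.6% of all genes) and for 9 with Dps (57.9%). Slc26a4, Atp6v1b1, Atp6v1c2 and Foxi1 were called higher at 24 h with both materials. Atp6v1b1 was higher by 0.24 ± 0.07 with MnDps (adjusted p = 0.0233) and by 0.19 ± 0.06 with Dps (adjusted p = 0.0235). Atp6v1c2 was higher by 0.42 ± 0.08 with MnDps (adjusted p = 0.0019) and by 0.53 ± 0.07 with Dps (adjusted p = 4.76e-05). Foxi1 was higher by 0.56 ± 0.14 with MnDps (adjusted p = 0.0116) and by 0.39 ± 0.13 with Dps (adjusted p = 0.0226). Atp6v1g3 was higher with Dps by 0.58 ± 0.10 (adjusted p = 0.000303), and with MnDps its difference was -0.12 ± 0.11 (adjusted p = 0.472). Several of these values moved with the processing. With the length and GC offset the Dps values were 0.01 for Atp6v1b1 and 0.29 for Foxi1, neither called, and 0.29 for Atp6v1c2, still called. The MnDps difference of Atp6v0d2, 0.15 (adjusted p = 0.36), was 0.29 and called with the offset (adjusted p = 0.0302). Without MnDps at 24 h replicate 1 the MnDps calls were lost for Atp6v1b1 (0.19), Atp6v1c2 (0.29) and Foxi1 (0.47), and that of Atp6v1b1 was also lost without MnDps at 24 h replicate 2 (0.29) or MnDps at 4 h replicate 3 (0.21). In a fit of only the groups compared, the MnDps calls were lost for Atp6v1b1 (0.26) and Foxi1 (0.57). The Dps call of Atp6v1b1 was lost without Dps at 4 h replicate 1 (0.17), 2 (0.18) or 3 (0.19), without Dps at 24 h replicate 1 (0.16), with no count filter (0.17) and with a term for deep libraries (0.17). That of Foxi1 was lost without Dps at 4 h replicate 1 (0.33) or 3 (0.36) or Dps at 24 h replicate 2 (0.39) or 3 (0.32).

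The 2 materials were compared with each other at matched dose and time. At 4 h, 3 of the 9 genes were called, where 41.5% of all tested genes were called, and the libraries of the 2 materials did not overlap for 4 of the 9 (53.0% of all genes). Atp6v1g3 was higher with MnDps than with Dps by 0.67 ± 0.10 (adjusted p = 0.00013), at 67.8 ± 8.39 CPM with MnDps and 42.4 ± 3.83 CPM with Dps, and this call was kept under every alternative run. Atp6v1c2 was higher by 0.38 ± 0.07 (adjusted p = 0.000779), at 40.9 ± 1.11 CPM with MnDps and 31.5 ± 0.0800 CPM with Dps, but by 0.02 and not called with the length and GC offset. Slc4a9 was lower with MnDps, with a log2 difference of -0.28 ± 0.07 (adjusted p = 0.00616), at 109 ± 6.69 CPM with MnDps and 133 ± 5.17 CPM with Dps, and the call was lost with the offset (-0.16) and with a term for deep libraries (-0.26). For the other 6 genes the 95% intervals of the log2 difference at 4 h were -0.75 to 0.20 for Slc4a1, 0.01 to 0.34 for Slc26a4, -0.04 to 0.22 for Atp6v1b1, -0.27 to 0.15 for Atp6v0d2, -0.12 to 0.43 for Foxi1 and -1.16 to 0.52 for Atp12a. Slc26a4, at a difference of 0.17, was called as higher with MnDps under limma voom (0.21) and with the term for deep libraries (0.27). At 24 h, 0 of the 9 genes were called by edgeR, where 0.815% of all tested genes were called, and the libraries did not overlap for 5 of the 9 (38.1% of all genes). At 24 h an unadjusted p under 0.05 was reached by 4 of the 9, DESeq2 called 1 (Slc4a1) and limma voom called 0. The Slc4a1 difference of 0.71 was 1.13 and called without MnDps at 24 h replicate 2, and 0.13 without MnDps at 24 h replicate 1. The 95% intervals at 24 h reached from 0.08 to 0.44 for Slc4a9, 0.09 to 0.43 for Atp6v1c2, 0.02 to 0.63 for Foxi1 and 0.19 to 1.22 for Slc4a1, so these p-values do not show that the materials acted alike.

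The change of the MnDps to Dps difference between the times was tested as an interaction, namely the log2 difference at 24 h minus that at 4 h. It was called for 3 of the 9 genes, where 29.4% of all tested genes were called. For Slc4a9 the difference between MnDps and Dps was 0.26 ± 0.08 at 24 h and -0.28 ± 0.07 at 4 h, and the interaction was 0.54 ± 0.11 (adjusted p = 0.00222). This call was kept under every alternative run, at 0.33 with the length and GC offset. For Atp6v1g3 the difference was -0.03 ± 0.11 at 24 h and 0.67 ± 0.10 at 4 h, and the interaction was -0.70 ± 0.15 (adjusted p = 0.00311), or -0.34 and not called with the offset. For Slc4a1 the difference was 0.71 ± 0.24 at 24 h and -0.27 ± 0.22 at 4 h, and the interaction was 0.98 ± 0.32 (adjusted p = 0.0382). Without MnDps at 24 h replicate 1 the Slc4a1 interaction was 0.41 and not called. It was also lost without MnDps at 4 h replicate 3 (0.81), Dps at 4 h replicate 2 (0.99) or 3 (0.91) or Dps at 24 h replicate 2 (0.93) or 3 (0.95), with no count filter (0.99), with the offset (0.77), with a term for deep libraries (1.10) and in a fit of only the groups compared (0.98). With the offset the called genes were Slc4a9 and Atp6v0d2, the interaction of Atp6v0d2 being 0.40 with it (adjusted p = 0.0372) and 0.24 without it (adjusted p = 0.247).

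**Figure D3:**
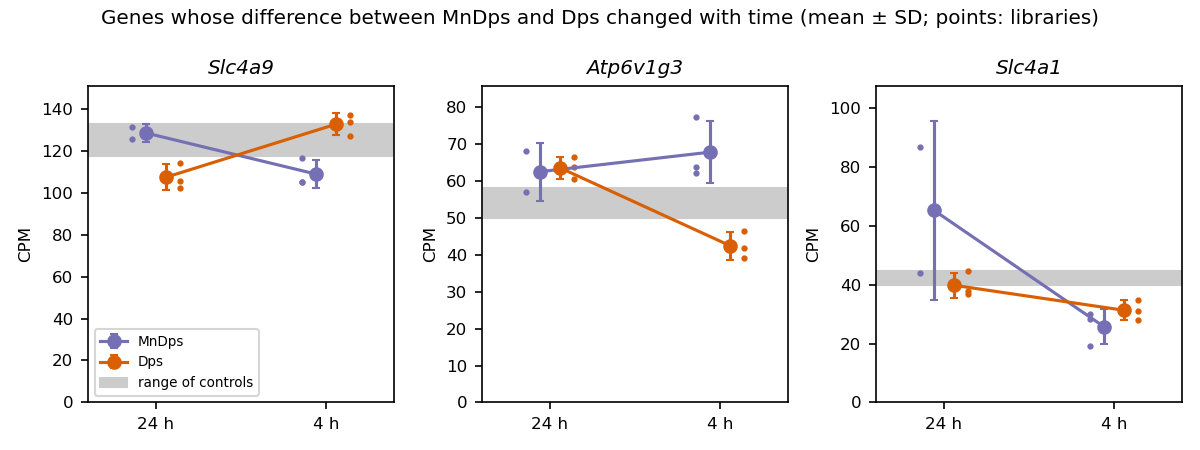
Level in CPM (vertical axis, from 0) of the 3 genes whose interaction was called, at 24 h and 4 h (horizontal axis), for MnDps and Dps as mean ± SD with the libraries as small points; the grey band is the range of the 3 controls. Slc4a9 lies higher with MnDps at 24 h and lower with MnDps at 4 h, and the Slc4a1 mean of MnDps at 24 h, 65.4 ± 30.4 CPM, spans libraries at 86.9 and 43.9 CPM.

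Other genes of intercalated cells, a list of 18 that were all tested, did not move as a block. Against control, 4 rose and 2 fell with MnDps at 24 h, 1 rose and 3 fell with Dps at 24 h, 1 rose and 5 fell with MnDps at 4 h, and 1 rose and 1 fell with Dps at 4 h. Of all tested genes, 13.3% were called for MnDps and 20.1% for Dps at 24 h, and 45.6% and 14.6% at 4 h. These shares also stand beside the counts of the lists that follow. Oxgr1, which encodes a receptor for oxoglutarate on type B cells, fell in 3 groups, with a log2 fold change of -0.38 ± 0.11 for MnDps at 24 h (adjusted p = 0.0296), -0.69 ± 0.10 for Dps at 24 h (adjusted p = 0.00129) and -0.67 ± 0.10 for MnDps at 4 h (adjusted p = 6.28e-05). Its level was 32.4 ± 3.98 CPM in MnDps at 24 h, 26.0 ± 0.591 CPM in Dps at 24 h, 26.4 ± 3.23 CPM in MnDps at 4 h and 40.0 ± 1.65 CPM in Dps at 4 h, against 42.1 ± 2.54 CPM in controls. Insrr, an alkali-sensing receptor of type B cells, fell with MnDps at 4 h by 0.54 ± 0.09 (adjusted p = 0.000175). Atp6v0a4, the a4 subunit of the pump, rose with Dps at 4 h by 0.43 ± 0.08 (adjusted p = 0.00193), in the same libraries in which B1, C2 and G3 fell. With MnDps at 24 h, Aqp6 rose by 1.02 ± 0.23 (adjusted p = 0.0157), with the library that was high for Slc4a1 at 129.9 CPM, and Rhbg, an ammonia transporter of the blood side, rose by 0.45 ± 0.12 (adjusted p = 0.0271).

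Of 16 subunits and accessory proteins of the pump that most cells use, 15 were tested. With MnDps at 24 h, 1 rose and 2 fell. With Dps at 24 h, 4 rose and 1 fell. With MnDps at 4 h, 5 rose and 1 fell, and with Dps at 4 h, 3 fell and none rose. Atp6v1a, the catalytic A subunit, fell in 3 groups, with a log2 fold change of -0.36 ± 0.11 for MnDps at 24 h (adjusted p = 0.0324), -0.31 ± 0.09 for Dps at 24 h (adjusted p = 0.029) and -0.60 ± 0.09 for MnDps at 4 h (adjusted p = 0.000132). Its level was 448 ± 8.55 CPM in MnDps at 24 h, 465 ± 18.5 CPM in Dps at 24 h, 379 ± 55.2 CPM in MnDps at 4 h and 484.5 ± 37.2 CPM in Dps at 4 h, against 576 ± 29.0 CPM in controls. At 4 h, 9 of the 15 were higher and 1 was lower with MnDps than with Dps. In this comparison 41.5% of all tested genes were called, 20.8% as higher. Those higher included Atp6v1f (0.60 ± 0.09, adjusted p = 0.000142) and Atp6v1e1 (0.51 ± 0.07, adjusted p = 9.95e-05). The length and GC offset, which took C2 from 0.38 to 0.02 in the same comparison, was not examined for these subunits.

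Principal cells, the neighbours in the same duct, gave other values. Of their 12 markers, 4 rose and none fell with MnDps at 24 h, 4 rose and 1 fell with Dps at 24 h, 2 rose and 4 fell with MnDps at 4 h, and 1 fell with Dps at 4 h. Aqp2, the water channel under vasopressin control, rose by 1.31 ± 0.25 with MnDps at 24 h (adjusted p = 0.008) and by 1.28 ± 0.23 with Dps at 24 h (adjusted p = 0.00504). Together the 12 markers summed to 1412 to 1575 CPM in MnDps at 24 h, 1392 to 1474 CPM in Dps at 24 h, 1078 to 1236 CPM in MnDps at 4 h and 937 to 1067 CPM in Dps at 4 h, against 1061 to 1222 CPM in controls. Acid-base genes of other segments, 11 in number, fell in 4 cases and rose in none with either material at 24 h. With MnDps at 4 h 2 rose and 5 fell, and with Dps at 4 h 1 rose and 1 fell. Slc9a3, the sodium-proton exchanger of the proximal tubule, fell in 2 groups, with a log2 fold change of -1.21 ± 0.20 for Dps at 24 h (adjusted p = 0.00338) and -1.86 ± 0.21 for MnDps at 4 h (adjusted p = 2.5e-05).

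**Figure D4:**
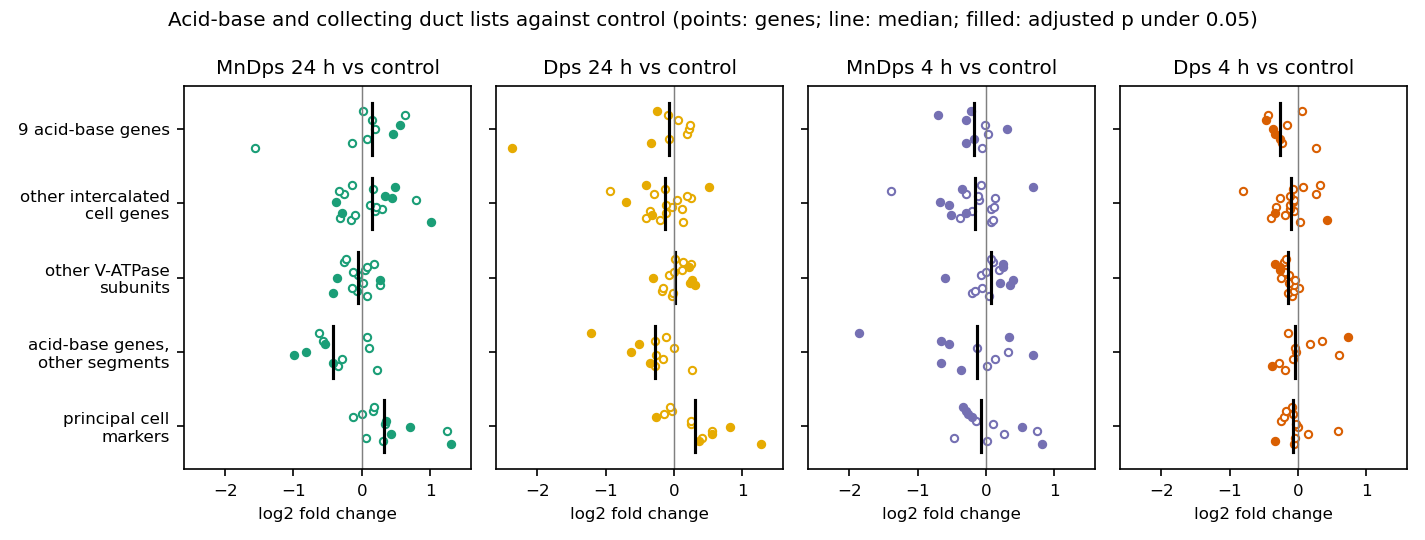
Log2 fold change against control (horizontal axis) of the tested genes of 5 lists (vertical axis) in the 4 treated groups; points are genes, filled where the adjusted p is under 0.05, and the line is the median of the list. The median of the 9 genes is 0.15 with MnDps at 24 h and -0.26 with Dps at 4 h, and the principal cell median is 0.33 with MnDps at 24 h and 0.31 with Dps at 24 h.

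The likeness of profiles over the 14 libraries was described by the root-mean-square difference between standardised log2 CPM, which is 0 for identical profiles and had a median between 1.4 and 1.44 over the 13293 genes compared. Among pairs of the 9 genes, Slc26a4 and Atp6v1b1 were closest at 0.576, followed by Slc4a1 and Atp6v1b1 at 0.606 and by Atp6v1c2 and Foxi1 at 0.63. The most distant pair was Slc4a9 and Atp6v1g3, at 1.86. With 13293 genes outside the list to search and few members, a closer outside gene is likely whatever the likeness of the members. Genes outside the list came closer than any member. For Slc26a4 these were Pygm (0.318), Pfkm (0.355) and Srpx2 (0.364), and for Atp6v1c2 they included Mapk3 (0.284) and Akr1c19 (0.305). For Atp6v1g3 they were Parl (0.153), S100a1 (0.206) and Mrpl48 (0.236), and for Foxi1 they were Acvrl1 (0.413), Ptp4a3 (0.431) and Npy (0.455). The nearest gene was Aplnr for Slc4a1 (0.406), Setbp1 for Slc4a9 (0.379), Klhdc8b for Atp6v1b1 (0.411), Acss1 for Atp6v0d2 (0.462) and Rassf9 for Atp12a (0.392). All profiles share the libraries, their depth and their length trend, so these values are a description.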

How the data were processed

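Total RNA from snap-frozen kidneys was made into stranded mRNA libraries and sequenced in pairs, per the labels' protocols. Per the submitters' processing notes, STAR and featureCounts were used with mm10. Not given in the sources used here are tool versions, the annotation, the strand setting and how multiply mapped reads were treated. The authors deposited raw counts per gene symbol for 14 libraries, with totals of 15097093 to 42074942. No label gives replicate numbers, so replicates are numbered in accession order. Replicates differed by more than counting noise (chi-square per degree of freedom 7.74 to 29.3).

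Low counts were removed with filterByExpr by group (14854 of 24421 genes kept), and libraries were scaled by TMM. One fit of 5 group means, with 9 residual degrees of freedom, was made in edgeR 4.0.16 (R 4.3.3) with its robust quasi-likelihood F-test, with Benjamini-Hochberg adjusted p-values in each of 9 comparisons. The SE is the log2 fold change divided by the root of F. The threshold for a call was an adjusted p of 0.05. Alternatives were size factors by the median of ratios, the count filter left out, at least 1 CPM in at least 3 libraries, DESeq2 1.42.0, limma voom with library weights (3.58.1), only the groups compared, a term for libraries over 30000000 counts (the counts of Dps at 4 h replicates 1 and 2 and control replicate 3 exceed this), a length and GC offset, and leaving out each library. Length and GC came from the longest transcript in GENCODE M21 on GRCm38, known for 14328 tested genes including all 9 members, and were set to the median for the rest. Levels per kilobase use the union of exons. The test was checked on simulated counts.

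The 9 genes and the other lists were chosen with earlier results of these data known. All 9 are described in every group. From another list, up to 4 called genes with the largest absolute log2 fold change in a comparison could be named. For likeness the 3 nearest genes with a mean of at least 1 CPM were found. Some genes that these rules would name are not reported here. Red cell, macrophage, endothelial, thick ascending limb, distal convoluted tubule and proximal tubule lists served as markers of other cells.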

Additional observations from a re-analysis of the deposited data

Results flagged for a closer look

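The difference between MnDps and Dps changed between 24 h and 4 h, by the test of the interaction itself (edgeR's quasi-likelihood test, Benjamini-Hochberg adjusted over all tested genes), for 3 of the 9 genes. For Slc4a1 the interaction was 0.98 ± 0.32 (SE, log2; adjusted p = 0.0382). The MnDps libraries at 24 h, at 86.9 and 43.9 CPM, overlapped those of Dps, which had a mean of 39.8 CPM and reached 44.6 CPM. At 4 h the libraries also overlapped, and the MnDps mean was 25.8 CPM and the Dps mean 31.3 CPM. Without the library at 86.9 CPM, replicate 1 of MnDps at 24 h, the value was 0.41 and not called. For Slc4a9 it was 0.54 ± 0.11 (adjusted p = 0.00222), with 2 of 2 MnDps libraries above every Dps library at 24 h and 3 of 3 below every Dps library at 4 h. For Atp6v1g3 it was -0.70 ± 0.15 (adjusted p = 0.00311), with overlapping libraries at 24 h and 3 of 3 MnDps libraries above every Dps library at 4 h. Of all tested genes, 29.4% were called in this comparison. No group held more than 3 libraries, so the range test for an outlying sample, which needs 4, was not made.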

How the results depend on the processing

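Depth limits Atp12a most, with 5 to 158 counts per library, and MnDps at 24 h rests on 2 libraries. The controls carry no time point, so time and treatment cannot be told apart in the comparisons with control. No paired analysis was possible because the labels give no replicate numbers that the groups share.

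The number of the 9 genes called for MnDps at 24 h against control was 4 under DESeq2. For Dps at 24 h against control it was 5 under limma voom and 1 with the term for deep libraries. For MnDps at 4 h against control and for MnDps at 24 h against 4 h it was 2 and 3 in fits of only the groups compared. For MnDps against Dps it was 1 under DESeq2 at 24 h and 1 with the length and GC offset at 4 h. With each library left out in turn, the number ran from 0 to 2 for MnDps at 24 h, 1 to 2 for Dps at 24 h, 1 to 6 for MnDps at 4 h and 2 to 4 for Dps at 4 h against control, from 0 to 1 for MnDps against Dps at 24 h and from 2 to 6 for MnDps at 24 h against 4 h.

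Values that turned in sign were mostly close to 0. With the length and GC offset they were, against control, -0.022 for Slc4a9 and -0.10 for Atp6v1b1 with MnDps at 24 h, -0.026 for Atp6v1c2 with Dps at 24 h and -0.29 for Atp6v1c2 with MnDps at 4 h. With the same offset they were -0.16 for Atp6v1b1 and -0.020 for Foxi1 (MnDps against Dps at 4 h), 0.21 for Atp6v1g3 (MnDps against Dps at 24 h), 0.10 for Atp6v1g3 (MnDps at 24 h against 4 h) and 0.28 for Atp6v1c2 (interaction). The term for deep libraries gave 0.031 for Foxi1 and 0.071 for Atp12a with MnDps at 4 h. The cause was not tested. Leaving out 1 library turned 11 uncalled values. Against control their ranges were -0.041 to 0.054 for Slc4a9 and -0.35 to 0.038 for Atp6v0d2 (MnDps at 24 h), -0.22 to 0.10 for Foxi1 and -0.47 to 0.22 for Atp12a (MnDps at 4 h), and -0.19 to 0.61 for Atp12a (Dps at 4 h). For MnDps against Dps they were -0.16 to 0.10 for Atp6v1g3 and -0.028 to 0.37 for Atp6v0d2 at 24 h, and -0.079 to 0.27 for Foxi1 and -0.75 to 0.15 for Atp12a at 4 h. For MnDps at 24 h against 4 h they were -0.26 to 0.0060 for Atp6v1g3 and -0.062 to 0.33 for Atp6v0d2.

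Under the other settings, 589 member values kept direction and side of the threshold, 29 lost a call, 19 gained one and 11 turned in sign. When 1 library was left out, the numbers were 432, 49, 5 and 18, each value being counted once for each run. Values that were not called to begin with are among those that kept their side. The number of all tested genes called moved by more than 1.5 times with the length and GC offset for MnDps at 24 h (1035, against 1978) and Dps at 24 h (1497, against 2979), for MnDps against Dps at 4 h (3691, against 6158) and for the interaction (2219, against 4368). With the term for deep libraries it was 1033 for MnDps at 24 h, 1637 for Dps at 24 h, 3558 for MnDps against Dps at 4 h and 4225 for Dps at 24 h against 4 h (against 6626). For MnDps against Dps at 24 h, where 121 were called, it was 68 with that term, 558 under DESeq2, 697 under limma voom and 727 with only those groups, and for MnDps at 24 h against 4 h it was 1878 with only those groups, against 3242. Leaving out 1 library moved it as far in 6 comparisons. For MnDps at 24 h against control it was 300 and 609 without MnDps at 24 h replicates 1 and 2, and 1221 and 779 without control replicates 1 and 3. Dps at 24 h against control gave 1776 and 1194 without Dps at 24 h replicates 1 and 2, and 843 (5.71% of tested genes) without control replicate 3. For Dps at 4 h against control it was 1435 without Dps at 4 h replicate 2, against 2168. For MnDps against Dps at 24 h it was 5 and 22 without MnDps at 24 h replicates 1 and 2, and 45, 16 and 15 without Dps at 24 h replicates 1, 2 and 3. For MnDps at 24 h against 4 h it was 1837 and 1336 without MnDps at 24 h replicates 1 and 2, and for the interaction it was 2724 without MnDps at 24 h replicate 2. Slc4a1 was called for Dps at 24 h against 4 h, at 0.35, only in the fit of the groups compared.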

Other observations

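Markers of other kidney cells, tested with edgeR's quasi-likelihood test at an adjusted p under 0.05, moved in their own ways against control. Of all tested genes, 13.3% were called for MnDps and 20.1% for Dps at 24 h, and 45.6% and 14.6% at 4 h. Of 11 macrophage markers, 7 rose and none fell in each 24 h group, while 2 rose and 5 fell with MnDps at 4 h and 1 rose and 4 fell with Dps at 4 h. Of 6 endothelial markers, 2 rose with MnDps at 24 h, 1 rose and 1 fell with Dps at 24 h, 4 fell with MnDps at 4 h, and 1 rose and 4 fell with Dps at 4 h. Of 8 proximal tubule markers, 1 rose and 2 fell with Dps at 24 h, 6 fell with MnDps at 4 h and 2 fell with Dps at 4 h, and the median log2 fold change was -0.20 with MnDps at 24 h.

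Of 6 distal convoluted tubule markers, 1 fell with MnDps at 24 h, 4 with Dps at 24 h, 4 with MnDps at 4 h and 2 with Dps at 4 h, and none rose. Of 6 thick ascending limb markers, 3 fell with MnDps at 24 h, 1 with Dps at 24 h, 2 with MnDps at 4 h and 1 with Dps at 4 h, and none rose. Of 4 tested erythroid markers, Alas2 rose with MnDps at 24 h (log2 fold change 1.33 ± 0.34, adjusted p = 0.0257) and Tspan33 with MnDps at 4 h (0.27 ± 0.09, adjusted p = 0.0262). The libraries of MnDps at 24 h were far apart for Alas2, at 23.6 CPM in replicate 1 and 9.87 CPM in replicate 2, against 4.39 to 8.56 CPM in controls.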
